A study of Mus musculus with 18 samples.

Results

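miR-210 is a single row of the deposited table of mature miRNAs, chosen by its name, and it is 1 of 583 rows. It was followed over the 18 libraries of the series, each of them a pool of mammary tumour RNA for 1 recombinant inbred strain of the AKXD set. The mice were F1 animals of an AKXD strain and FVB/N-TgN(MMTV-PyVT)634Mul, a transgenic line in which the mouse mammary tumour virus promoter drives the polyoma virus middle T oncogene in mammary epithelium. AKXD strains descend from AKR/J and DBA/2J, so that the pools differ in which parent's allele they carry at a locus and share the FVB/N genome and the transgene. With 1 pool per strain (n = 1), levels of single strains carry no biological replicate and are not tested against each other. The sources used here do not give the age and treatment of the mice or the number of tumours in a pool.

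miR-210 is the miRNA best known for its induction by low oxygen. The hypoxia-inducible factor HIF-1 alpha binds near its gene and raises its transcription in many cell types, tumour cells among them. Known targets of miR-210 include the iron-sulfur cluster scaffold ISCU, through which it lowers mitochondrial respiration, and ephrin-A3, through which it acts on endothelial cells. In breast carcinoma it has been studied as a marker of hypoxia. Oxygen, HIF-1 alpha and the target transcripts were not measured in these libraries, so the name of hypoxia-induced miRNA is background and was not checked here.

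The hairpin and both of its arms are shown because the row is named without an arm. In the older naming, miR-210 without a suffix meant the 3p arm, and no row for the other arm is in the table used here. The sequences are RefSeq's, written 5′ to 3′. In the hairpin the capitals mark the arms, 5p first. In the mature sequences they mark the seed, bases 2 to 8, which pairs with target transcripts.
Mir210 hairpin: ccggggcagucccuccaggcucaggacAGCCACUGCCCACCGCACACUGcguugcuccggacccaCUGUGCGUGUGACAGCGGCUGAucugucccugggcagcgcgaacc
miR-210-3p: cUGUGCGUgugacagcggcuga
miR-210-5p: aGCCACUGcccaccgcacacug

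In the GRCm38 build the hairpin of 110 bases lies on the minus strand at chr7:141221384-141221493, with the 3p arm at chr7:141221407-141221428. The study's notes name the older build mm9, and the deposited table has no coordinates. No other GENCODE gene overlaps the hairpin. The nearest are Rassf7, 2726 bases away, and Phrf1, 7291 bases away, both on the plus strand. RefSeq lists 10 other miRNA hairpins within 5 Mb on chromosome 7, and 3 of them have a row in the table: miR-202-5p, miR-675-3p and miR-483. Their highest values in any strain were 0.239, 0.260 and 0.211 CPM (counts per 1e6 reads of the scaled library), so no neighbouring miRNA reached the mean of 10 CPM needed for a comparison. RNAfold pairs 16 of the 22 bases of the 3p arm with the 5p arm (minimum free energy of the hairpin -48.0 kcal/mol). The 3p arm has a GC content of 63.6%, above that of 82.3% of the 1674 distinct mouse mature sequences in RefSeq's table, whose median is 52.2%. It holds 2 CG dinucleotides, and 9.02% of mature sequences hold as many or more. Its seed occurs in 0 other mature sequences of that table, and the nearest other mature sequence differs by 7 edits, so that the row has no near-identical family member to share reads with.

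The libraries held 4361571 to 14943080 miRNA reads. miR-210 had 491 (strain 7) to 6285 (strain 16) reads. Its share of the reads of a library was 0.00467% in strain 14 at the lowest and 0.0810% in strain 16 at the highest. Across the panel it was a miRNA of middle abundance, at 203 ± 153 CPM (SD, n = 18) with a median of 133 CPM. By mean CPM it ranked 110 of 571 distinct rows, between miR-32 at 204 CPM and miR-15b at 200.1 CPM. Within single libraries its rank went from 73 in strain 16 to 150 in strain 14. The bulk pools do not separate a larger share of cells that hold miR-210 from more miR-210 per cell.

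miR-210 was highest in the tumour pool of strain 16, at 677 CPM, and lowest in that of strain 14, at 69.6 CPM, a ratio of 9.72. Next came strain 23 at 409 CPM, strain 2 at 324 CPM, strain 25 at 321 CPM and strain 21 at 315 CPM. The level of strain 16 was 5.09 times the median of the panel and 1.65 times that of strain 23. Below these 5 strains came strain 28 at 177 CPM, strain 11 at 157 CPM, strain 13 at 137 CPM and strain 24 at 136 CPM. They were followed by strain 20 at 129.5 CPM, strain 27 at 127 CPM, strain 18 at 125 CPM, and strains 9 and 3 at 121 CPM each. The lowest levels were those of strain 7 at 119.9 CPM, strain 22 at 101 CPM, strain 10 at 94.4 CPM and strain 14. So 13 strains lay within 69.6 to 177 CPM and 5 within 315 to 677 CPM.

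**Figure D1:**
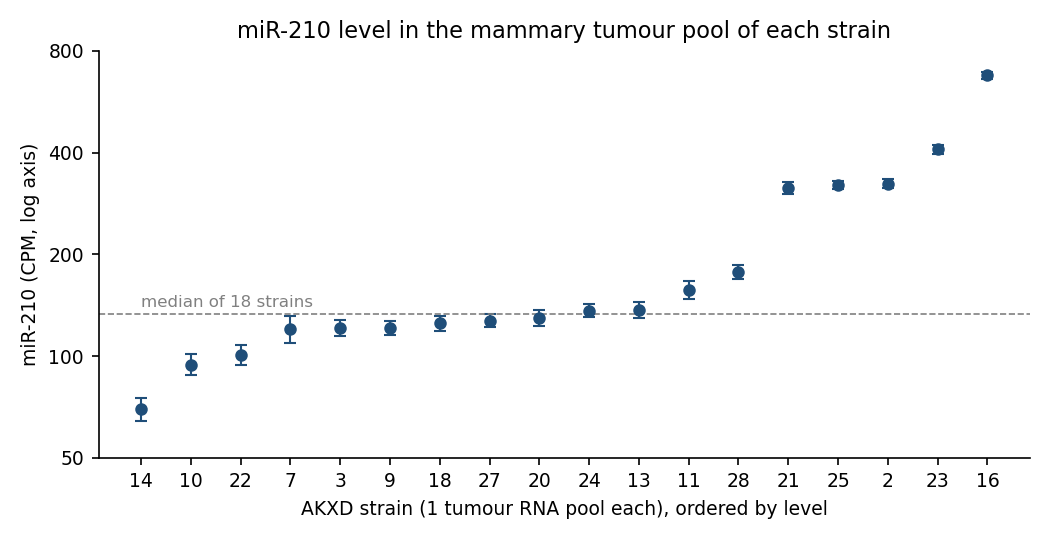
Level of miR-210 (CPM, log axis) in the tumour RNA pool of each of the 18 strains, ordered by level, with exact Poisson 95% intervals of the reads (counting error only) as bars and the median of 133 CPM as a dashed line. Strains 21, 25, 2, 23 and 16 lie at 315 CPM or more, and strain 28 is the next below at 177 CPM.

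The order was read against the error of counting reads, the only error that a single library gives. The exact Poisson 95% interval of a level reached from 2.48% to 8.95% to either side, and copies made by PCR are not told apart in it. Of the 17 pairs of neighbours in the order, 10 had a 95% interval of their ratio (conditional binomial) that included 1. The 8 strains from strain 7 to strain 13, at 119.9 to 137 CPM, form an unbroken run of such pairs, and so do strains 21, 25 and 2. Strains 10 and 22 were the remaining pair. The step from strain 28 to strain 21 was a ratio of 1.78 (95% interval 1.67 to 1.89), and that from strain 23 to strain 16 one of 1.65 (1.59 to 1.72). On the log2 scale these were the widest steps in the order, 0.83 and 0.72. These intervals compare libraries and not strains, since each strain has 1 pool.

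The place of the widest step depends on how libraries are scaled. The CPM given here rest on scaling by the trimmed mean of log ratios (TMM), with factors from 0.671 (strain 14) to 1.69 (strain 28). Strain 16 was highest and strain 14 lowest under all 4 scalings tried. With upper-quartile scaling the widest step stayed between strain 28 at 172 CPM and strain 21 at 315 CPM. With median-of-ratios scaling it lay below strain 16 alone, from 385 to 692 CPM. With library totals alone it also lay there, from 363 to 809.9 CPM, and strain 28 came to 298 CPM, close to the 339 CPM of strain 2. Library totals alone moved the median of all tested miRNAs by up to 0.75 log2 in a library.

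**Figure D2:**
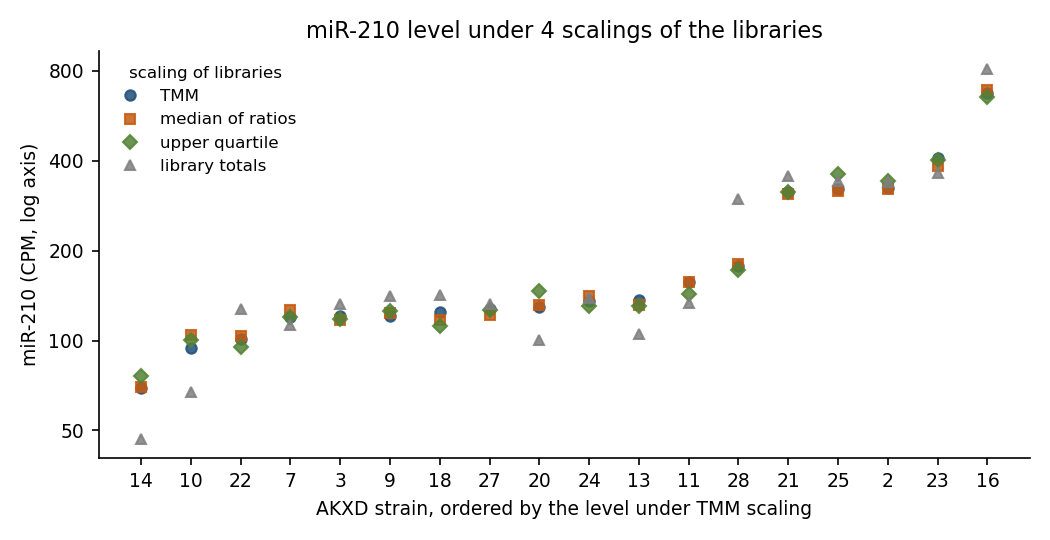
Level of miR-210 (CPM, log axis) in each strain under 4 scalings of the libraries, with strains ordered by the TMM level. TMM, median of ratios and upper quartile give like values, whereas library totals alone lower strains 10, 13, 14 and 20 and raise strain 28 to 298 CPM.

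miR-210 varied more over strains than most miRNAs of its abundance. Its SD of log2(CPM + 1) was 0.85 (n = 18), against a median of 0.45 over the 281 miRNAs that averaged 10 CPM or more, and 32 miRNAs had a larger one. Of the 50 tested miRNAs nearest in mean log2 level, 2 had a larger SD: the muscle miRNA miR-133a (1.37) and miR-342-3p (0.92). The miRNAs next to it in mean CPM ranged less widely. miR-411 went from 120.03 to 347 CPM, miR-32 from 120.03 to 320.2 CPM and miR-15b from 124 to 305 CPM, while miR-142-5p, a miRNA of leukocytes, went from 99.8 to 542 CPM. Strain 16 carried part of the spread, and without it the SD was 0.71 over 17 strains.

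The spread was then tested against that of other miRNAs with limma's trended prior of variances. The SD of miR-210 was 2.05 times the trend, which did not pass in limma (Benjamini-Hochberg adjusted p = 0.894 over 281 miRNAs). Of all 281 miRNAs 0 were called (0%), 0 also without the robust option, and 13 (4.63%) had an unadjusted p under 0.05. The prior had 3.57 degrees of freedom, and for 1 miRNA to be called alone its SD had to exceed the trend 13.3 times. Several called together would each need a lower ratio. The highest ratio seen was 5.74.

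**Figure D3:**
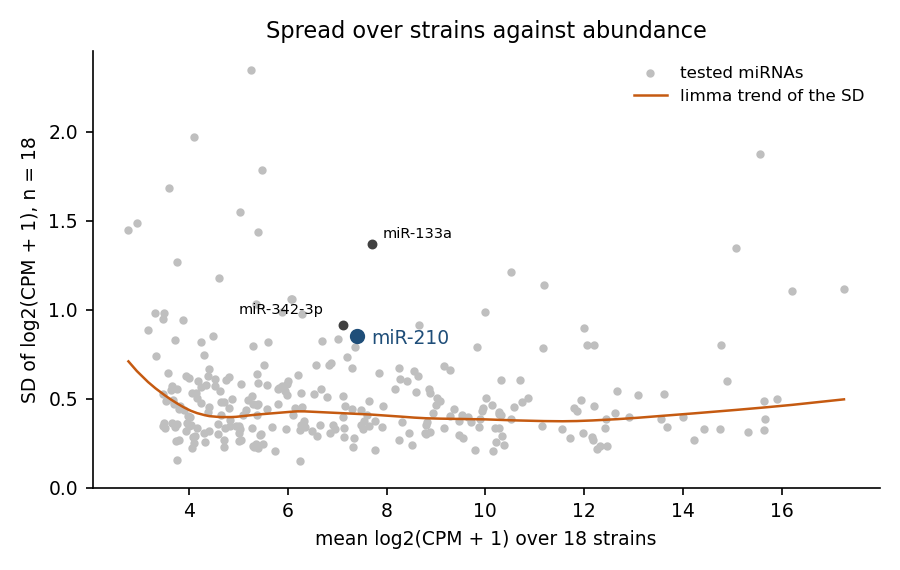
SD over the 18 strains (log2(CPM + 1)) against mean level for the 281 tested miRNAs, with the trend fitted by limma as a line. miR-210, in blue, has an SD of 0.85 at a mean of 7.40, and of the 50 miRNAs nearest in level miR-133a and miR-342-3p, in black, have a larger one.

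The 280 other miRNAs that averaged 10 CPM or more were correlated with miR-210 over the 18 strains to find those with the most similar pattern. miR-709 was the most similar. It was at 65.2 CPM in strain 21, 61.5 CPM in strain 16, 15.9 CPM in strain 2, 13.2 CPM in strain 23, 9.97 CPM in strain 28, with strain 25 next at 7.77 CPM. The other 12 strains had 1.48 to 6.23 CPM, from 16 to 88 reads. Thus the 5 strains with the most miR-210 were among the 6 with the most miR-709, and strain 28 was the other. Spearman's rho was 0.73 (permutation p = 0.00102, adjusted p = 0.286 over the 280 miRNAs), which did not pass. Pearson's r of log2(CPM + 1) was 0.85 (permutation p = 3e-05, adjusted p = 0.0084), and a limma regression on miR-210 gave a slope of 1.44 ± 0.22 (SE; adjusted p = 0.000618). Without strains 16 and 23, which are farthest from the median of miR-210, r was 0.77 and rho 0.63. miR-709 met the minimum of 10 CPM only through strains 16 and 21, both high in miR-210: its mean was 8.61 CPM without strain 16 and 8.54 CPM without strain 21. Its calls at this minimum are therefore a description and support nothing. With a minimum of 1 CPM, which all its strains exceed, the adjusted p was 0.0117 for r and 0.199 for rho. Kept without strain 16, it had r = 0.77 and adjusted p = 0.0682, here over a larger set of 390 miRNAs, and was not called by r. Without strain 2 the call by r was lost as well (r = 0.84, adjusted p = 0.0504). Conversely, rho passed without strain 22 (0.82, adjusted p = 0.0140) and without strain 27 (0.81, adjusted p = 0.0445).

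By Spearman's rho, 0 of the 280 miRNAs passed an adjusted p of 0.05 in the positive direction (0%) and 0 in the negative (0%). At an unadjusted permutation p under 0.05 there were 4 positive (1.43%) and 6 negative (2.14%) miRNAs. By Pearson's r and by limma regression 1 miRNA was called (0.357%), miR-709 both times, with the limit on its entry into the tested set given above. An unadjusted p under 0.05 was met by 25 miRNAs (8.93%) with Pearson's r and by 27 (9.64%) with limma. The median rho over all 280 was -0.03, and 125 of them (44.6%) had a positive one. No batch is named in the labels, so no values within batches can be given.

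miR-203, a miRNA of stratified epithelium that limits p63, came next in rho. It was at 9938 CPM in strain 2, 4379 CPM in strain 23, and 4262 CPM in strain 21, followed by strain 16 with 4130 CPM, and these 4 were its highest strains. In strain 25, which is also high in miR-210, it was at 1719 CPM, within the range of 994 to 3071 CPM of the other 13 strains. The correlation was rho = 0.57 (permutation p = 0.0144, adjusted p = 0.844) and r = 0.68 (permutation p = 0.00242, adjusted p = 0.226). Without strains 16 and 23 r was 0.63 and rho 0.41. miR-92a, counted here with the miR-17-92 cluster, had 530.5 CPM in strain 9, its lowest, and 1232 CPM in strain 21, its highest. Its rho was 0.48 (permutation p = 0.0441, adjusted p = 0.844) and its r 0.58 (permutation p = 0.0117, adjusted p = 0.442). Without strains 16 and 23 its rho fell to 0.37 and its r was 0.63. It was also at 1086 CPM in strain 18, where miR-210 was at 125 CPM. The other miRNAs among the 8 with the highest rho were miR-2133, miR-2137, miR-689, miR-455* and miR-187, with rho from 0.44 to 0.52 and adjusted p = 0.844 each. Of these, miR-2137 and miR-689 had like profiles. Both were highest in strain 7 (415 and 457 CPM), next in strain 11 (161 and 174 CPM) and lowest in strain 10 (19.6 and 24.8 CPM). They are not to be read as separate correlates.

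By Pearson's r, miR-484 was second, with its highest level in strain 16 (97.8 CPM) and its lowest in strain 10 (23.0 CPM; r = 0.69, permutation p = 0.00151, adjusted p = 0.211; rho = 0.44). It was named after its values were seen. Without strains 16 and 23 its r was 0.51 and its rho 0.37. Of miR-484 and the 8 miRNAs with the highest rho, RefSeq holds miR-484 and miR-2137 under the name of the row, and their seeds, in capitals, are shown to be read against that of miR-210-3p.
miR-484: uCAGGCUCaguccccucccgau
miR-2137: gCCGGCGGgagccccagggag
Both seeds differ from that of miR-210-3p. miR-709 and miR-203 have no entry under the name of their row and are named only.

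miR-26a, which is known to repress Ezh2, had the lowest Spearman's rho with miR-210. By Pearson's r miR-126-3p was as low, and by limma regression miR-196b had a smaller p. It was highest in strains 14 and 10, at 7864 and 7863 CPM, which were also the lowest in miR-210. It was lowest in strain 21, with 2931 CPM, and had 4188 CPM in strain 16. The correlation was rho = -0.55 (permutation p = 0.0192, adjusted p = 0.844) and r = -0.60 (permutation p = 0.00835, adjusted p = 0.442). Once strains 16 and 23 were left out, r was again -0.60 and rho -0.46. The other 7 of the 8 lowest were miR-30b*, a passenger arm, miR-676 and miR-676*, miR-196b of the Hox clusters, miR-672, let-7e and miR-135a, with rho from -0.53 to -0.47 and adjusted p = 0.844 each. miR-676 and miR-676* are arms of 1 hairpin and are not independent.

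**Figure D4:**
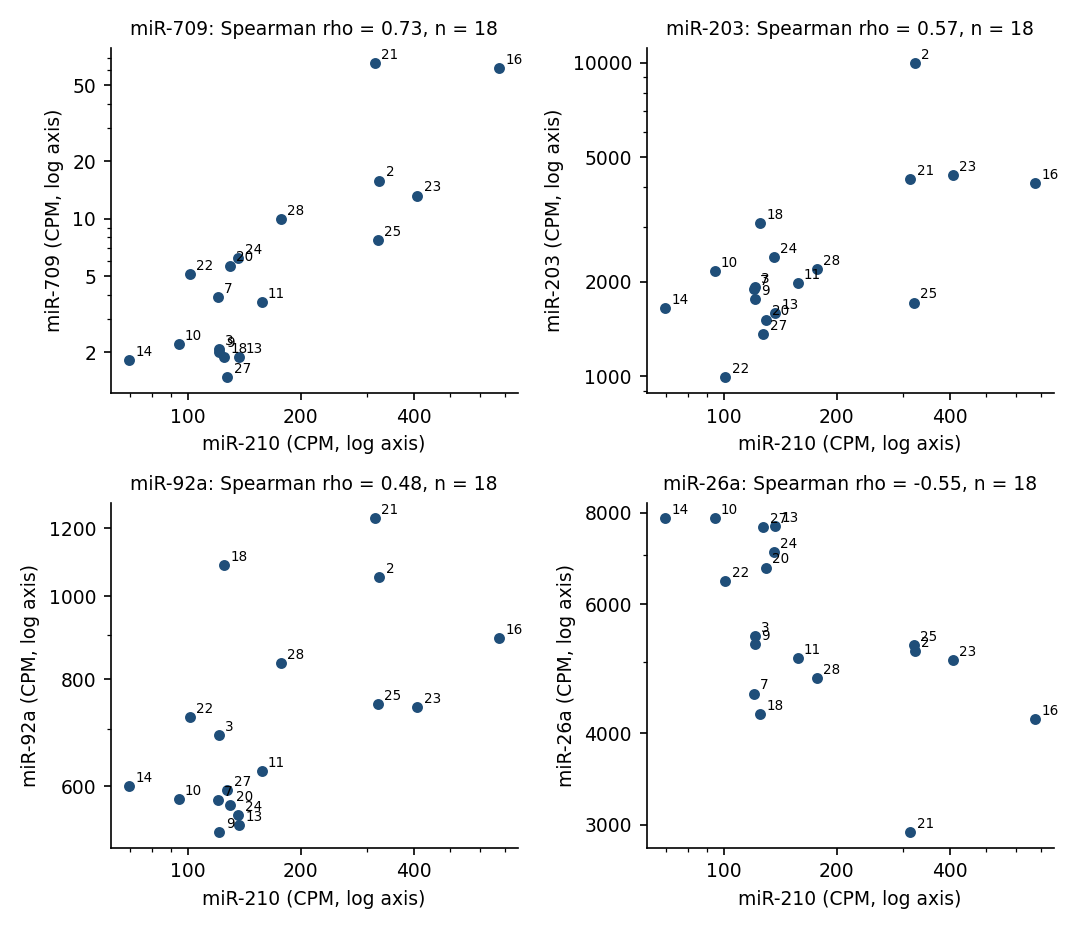
Level of miR-709, miR-203, miR-92a and miR-26a against that of miR-210 (CPM, log axes), 1 point per strain with its number. miR-709 and miR-203 are high in strains 2, 16, 21 and 23, and miR-26a is low in strains 16 and 21 and high in strains 10 and 14.

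Of 15 tested miRNAs reported by others as raised in hypoxic carcinoma cells 7 had a positive rho with miR-210, against 44.6% of all 280. Their median was -0.02 against -0.03 over all, and 0 passed in either direction, as for all miRNAs. These values are at the background and are no result about the list. The highest were miR-27a and miR-23b, at rho = 0.26 each (adjusted p = 0.844). The lowest were miR-26a and miR-155, a miRNA of activated leukocytes (rho = -0.46, permutation p = 0.0574, adjusted p = 0.844; 0.046 with library totals alone). miR-21, the best known of the list in carcinoma, had rho = -0.23 and was at 272 CPM in strain 28 against a panel mean of 62348 CPM. All other strains had 52937 to 79974 CPM, and miR-21*, from the same hairpin, was highest in strain 28 at 114 CPM. Whether the low value belongs to the tumours or to the library was not tested. Of 8 tested rows listed as reported to target the HIF-1 alpha transcript 5 had a positive rho, with a median of 0.09. They went from -0.46 for miR-155 to 0.30 for miR-20a, and 0 passed. The list names miR-199a without an arm, and its tested row was miR-199a-3p (rho = -0.12). Whether the reports concern that arm was not checked, so the count and the median are for the rows as matched. miR-155 and miR-20a had adjusted p = 0.844.

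Among 7 miRNAs of blood vessel growth 4 had a positive rho (median 0.21) and 0 passed. This list names miR-296 without an arm, and its tested row was miR-296-3p (rho = -0.09). miR-92a was the highest. The lowest was miR-126-3p, the main endothelial miRNA, lowest in strain 16 with 7241 CPM and highest in strain 14 with 20898 CPM. Its r was -0.60 (permutation p = 0.00761, adjusted p = 0.442) and -0.51 without strains 16 and 23. Its rho was -0.34 (permutation p = 0.169, adjusted p = 0.844) and -0.26 without these strains. miR-126-5p, from the same hairpin, had a rho of -0.0010. Of 6 miRNAs known from energy metabolism 1 had a positive rho (median -0.19), and 0 passed. miR-378, its most abundant member, had rho = -0.11. Of 9 miRNAs of the miR-17-92 and miR-106b-25 clusters, known from proliferating cells, 8 had a positive rho (median 0.24), with 0 passing. miR-93, the most abundant of them, was the exception at rho = -0.07, and with library totals alone its rho was 0.43. Members of a cluster are not independent of each other. Over all 280 miRNAs 44.6% had a positive rho, and no list was tested as a set. Of 5 miRNAs induced by p53, 2 had a positive rho (median -0.05), and miR-34c, the most abundant, had rho = -0.05. The sign of miR-34c turned in 15 of 27 alternatives, up to a rho of 0.28, and its r was 0.12, so no direction is given for it.

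Lists of other cell types give the make-up of the pools beside miR-210. Epithelial miRNAs were present in every pool, as the label of mammary tumour implies: their 11 tested members summed to 46712 CPM at the least, in strain 16, the pool with the most miR-210, and to 106702 CPM at the most, in strain 10. Of the 11, 4 had a positive rho with miR-210, led by miR-203, and 7 a negative one, lowest for miR-200c, which represses Zeb1 (rho = -0.41, permutation p = 0.0936, adjusted p = 0.844). The median rho was -0.20. By Pearson's r, miR-200b (-0.52) and miR-429 (-0.50) were lower than miR-200c (-0.38). The r of miR-429 was -0.17 without strain 16, where miR-429 was lowest. Muscle miRNAs summed to between 22369 (strain 9) and 303261 CPM (strain 14), and all 4 had a positive rho, from 0.02 to 0.18 (miR-1, rho = 0.15). Over all 280 miRNAs 44.6% had a positive one. By r, miR-1 (-0.06) and miR-206 (-0.17) were negative and miR-133a (0.21) and miR-133b (0.20) positive, so no direction is given for muscle. With library totals alone the rho of miR-1 turned negative. Leukocyte miRNAs summed to between 2273 and 19583 CPM (6 members, 2 positive, median -0.06), and red blood cell miRNAs to between 206 and 809 CPM (3 members, 1 positive, median -0.03). miR-142-3p had rho = -0.05 and miR-451 rho = -0.11. The 2 arms of miR-126 summed to between 8288 (strain 16) and 22317 CPM (strain 14) (0 of 2 positive, median -0.17). Mesenchymal miRNAs summed to between 16124 and 61002 CPM (4 members, 1 positive, median -0.17; miR-143, rho = -0.23). Those of liver and pancreas summed to between 21.64 (strain 16) and 492 CPM (strain 14) (4 members, 0 positive, median -0.26; miR-122, rho = -0.28). By Spearman's rho no member of these 7 lists passed an adjusted p of 0.05, and 1 of them, miR-203, had an unadjusted p under 0.05. By Pearson's r none passed either. Members with an unadjusted permutation p under 0.05 by r included, beside miR-203, miR-126-3p (r = -0.60, p = 0.00761), miR-205 (0.54, 0.0222) and miR-429 (-0.50, 0.0352). The part of cell content in the level of miR-210 was not tested.

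**Figure D5:**
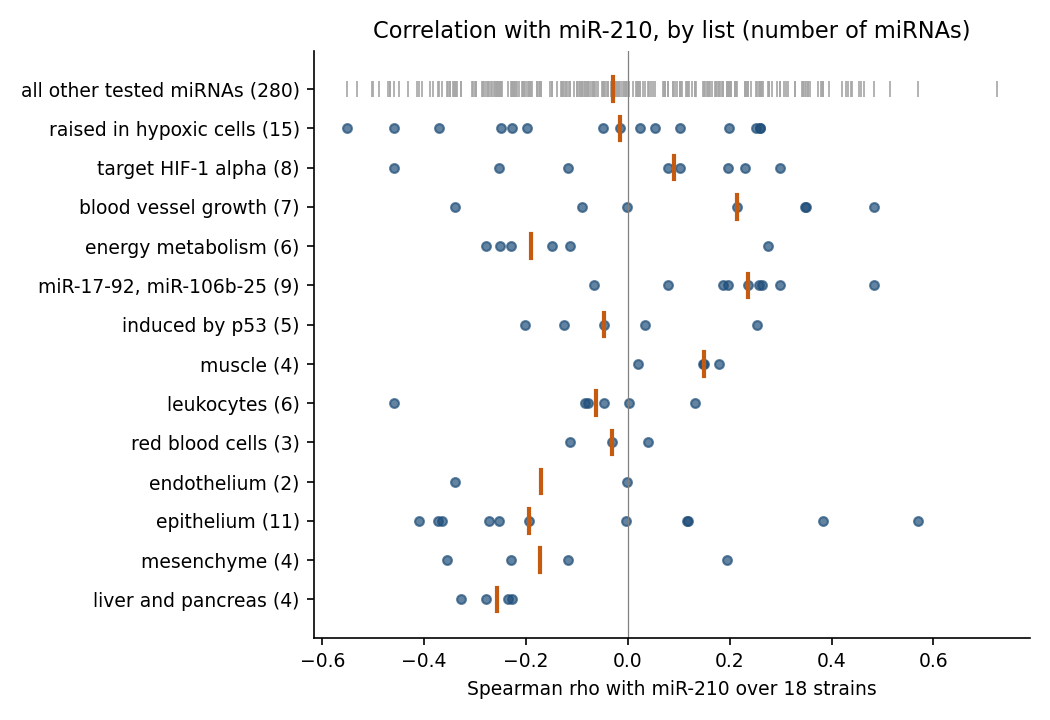
Spearman's rho with miR-210 over the 18 strains for each tested member of 13 lists (points) and for all 280 other miRNAs (grey ticks), with medians as orange bars. The list of miRNAs raised in hypoxic cells is spread around its median of -0.02, next to -0.03 for all miRNAs. The 9 miRNAs of the miR-17-92 and miR-106b-25 clusters lie mostly above 0 but are not independent within a cluster.

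The level of miR-210 was also set against 3 measures of the libraries. With the total of reads rho was 0.0052 and r -0.09 (permutation p = 0.987 and 0.713), and with the TMM factor rho was 0.25 and r 0.33 (permutation p = 0.321 and 0.178). With the first principal component of the other miRNAs, which held 27.6% of their variance, rho was -0.33 and r -0.44 (permutation p = 0.182 and 0.0664). With library totals alone the component was computed anew, and its rho with miR-210 was -0.65, which passed (permutation test, adjusted p = 0.00838). Without scaling, a shift of a whole library enters both miR-210 and that component, so no link is drawn from this pass. The rho with the TMM factor was -0.16 with strains 10, 13, 14 and 20 left out and -0.18 with strain 28 left out as well. Adjusted over the 3 measures, the p of rho was 0.987, 0.482 and 0.482, and that of r 0.713, 0.267 and 0.199. Without strains 16 and 23 r was -0.07, 0.39 and -0.46. Strain 16, highest in miR-210, was at the low end of the component from TMM-scaled values. Strains 10, 13, 14 and 20, at its high end, had 94.4, 137, 69.6 and 129.5 CPM of miR-210 and so lay among the 13 strains of the lower range. Without these 4 libraries the SD of miR-210 was 0.86 over 14 strains, and 0 miRNAs were called as correlates by rho.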

How the data were processed

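The authors deposited 1 table of log2 values with 2 decimals for 583 mature miRNAs in 18 libraries, and columns were matched to samples by description. The submitters' processing notes name BWA and mm9 without a role; the sources used here give neither counter nor miRNA annotation. RNA came from snap-frozen tumours by the mirVana kit, per the labels' protocols.

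From the values, the deposited log2 values are logarithms of whole reads times 1 constant per library (1.00 to 1.39). This held within 0.006 log2 for 100% of 3813 values of up to 50 reads. A row without reads is written as 0, and so is a single read in strain 25. Reads above this range are known to 0.347%, the rounding of the log2 values. Values were returned to reads, 8 sets of identical rows (20 rows) were counted once (571 rows), and libraries were scaled by TMM (30% of log ratios and 5% of abundances trimmed). CPM plus a pseudocount of 1 were taken to log2, a scale on which low miRNAs change less than in CPM. Tests covered the 281 rows averaging 10 CPM or more.

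Correlations used two-sided permutation tests of 100000 resamples with Benjamini-Hochberg adjustment and a threshold of 0.05. The variance test and the regression used limma 3.58.1 in R 4.3.3, with Python 3.11.15, numpy 2.4.6, pandas 2.3.3, scipy 1.17.1 and RNAfold 2.7.2. All tests were tried on simulated libraries with known changes, in which all other miRNAs were given the same spread. Spreads in the real libraries differ more, so the trial does not show how the variance test works here. Named are the 8 highest and 8 lowest correlates, members of the hypoxia, HIF-1 alpha and vessel lists, the most abundant member of each other list, miRNAs within 5 Mb, and the 2 next above and below in abundance. miR-210, the lists and the alternatives were chosen with earlier results of these data known. Groups are strains with n = 1, and p-values refer to the spread over these 18 pools only.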

Additional observations from a re-analysis of the deposited data

How the results depend on the processing

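The mean log2(CPM + 1) of miR-210 stayed within 7.27 to 7.73 in 23 alternatives (other scalings, strains left out), and its SD between 0.71 and 1.01 in 28, where its variance was never called (adjusted p 0.654 to 0.934). By rho, 0 negative correlates were found in all 29 alternatives. The number of positive ones was 0, but 1 by Pearson's r, by limma, with all identical rows counted and with the first principal component removed, and 6 with library totals alone, among them miR-709, miR-203, miR-92a, miR-187 and miR-455*. Leaving out 1 strain gave 0 to 1, with 1 without strain 22 and 1 without strain 27. The r of miR-709 lay between 0.77 and 0.88. Its call was lost without strain 2 (adjusted p = 0.0504), with strains 10, 13, 14 and 20 left out (0.0590) and with strain 28 left out as well (0.0955). It was also not called without strain 16, where the adjustment was over a larger set of 390 miRNAs. Keeping miR-709 without strains 16 and 21 was chosen after seeing the data. With library totals alone the rho of miR-210 with the first principal component, computed anew from those values, passed (-0.65, permutation test, adjusted p = 0.00838). Unscaled library shifts enter both sides of this rho and of the 6 calls with library totals alone, so no link is drawn from them.

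Signs of weak correlations turned as follows. With the total of reads rho was -0.25 with library totals alone, -0.069 with median-of-ratios scaling and -0.14 to 0.081 with 1 strain left out. With the TMM factor it was -0.16 with strains 10, 13, 14 and 20 left out and -0.18 with strain 28 left out as well. With those 4 left out, and with all 5 left out, rho was 0.13 and 0.17 for miR-122, 0.20 and 0.19 for miR-143, 0.17 and 0.11 for miR-34c, 0.31 and 0.29 for miR-378, 0.011 and 0.022 for miR-451, and 0.077 and 0.011 for miR-93. With library totals alone it was 0.18 for let-7e, -0.12 for miR-1, 0.21 for miR-142-3p, 0.046 for miR-155, 0.27 for miR-34c, 0.14 for miR-451, 0.040 for miR-676* and 0.43 for miR-93. With the first principal component removed it was -0.0031 for miR-1, 0.28 for miR-34c and 0.20 for miR-93. For miR-34c it was also 0.11 with all identical rows counted, 0.073 with median-of-ratios and 0.028 with upper-quartile scaling. With 1 strain left out it ranged from -0.21 to 0.13 for miR-142-3p, -0.21 to 0.16 for miR-34c, -0.23 to 0.051 for miR-378, -0.20 to 0.093 for miR-451 and -0.21 to 0.088 for miR-93. The cause was not tested. The planned correction for GC content was void, since 13.2% of the tested rows have a mature sequence under their own name and 79.7% a hairpin. No paired analysis was possible because every strain has 1 library. With 18 single pools, differences between strains have no replicate. Depth limits miRNAs with few reads in a library. Among those named are miR-709 (16 reads at the least), miR-122 (12 in strain 21), miR-135a (27 in strain 2) and miR-296-3p (27 in strain 25).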
